A study of Mus musculus with 4 samples.

Results

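The Sox9 interval is the stretch of mouse chromosome 11 from 110.95 to 112.70 Mb (build mm9) that holds the gene desert between Kcnj2 and Sox9. Its members are the listed Ring1b regions that overlap this stretch, chosen by position, and they number 31 of the 6371 regions in the authors' table. By its name, the table lists regions associated with Ring1b peaks of the wild-type library, so members are taken as picked through signal in that library. The name alone gives this, and the lowest wild-type value among the other 6340 regions is 0. A region bound only in the mutant cells may thus be missing.

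Ring1b was profiled by ChIP-seq, the sequencing of DNA recovered with chromatin bound by an antibody. The cells were C3H10T1/2, a line of mesenchymal progenitors from C3H mouse embryos, grown in serum-containing medium. K36M cells stably expressed histone H3.3 with a FLAG-HA tag and with methionine in place of lysine 36. WT cells stably expressed wild-type H3.3 with the same tag. Both kinds of cell thus carry a tagged H3.3 transgene, and the labels as used here name neither its promoter nor a clone. The values come from 1 Ring1b library of each kind; the 5% input libraries, 1 of each kind, were not analysed here.

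Sox9 encodes a transcription factor of the HMG-box family that is required for cartilage formation and for Sertoli cell differentiation in the testis, and it also acts in neural crest, hair follicle and other progenitors. The desert on its upstream side is known for enhancers that act on Sox9 over long distances, and rearrangements there cause skeletal, craniofacial and sex-development disorders in humans. Ring1b is the catalytic ubiquitin ligase of Polycomb repressive complex 1, which marks histone H2A and helps to keep developmental genes silent. The K36M substitution blocks methylation of its own lysine and inhibits enzymes that methylate this residue on other histones; it is found in chondroblastoma, a cartilage tumour. The comparison asks how the distribution of Ring1b differs between K36M and WT cells.

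No listed region overlapped Sox9 itself. The gene lies near position 112640000 of mm9, and this point, known to about 10 kb, is used here as the origin of all distances. The nearest region ended about 10 kb upstream of it, and the next region downstream started about 70 kb beyond it, outside the interval. The first 284 kb of the interval on the Kcnj2 side also held no listed region. All 31 members therefore lay upstream of Sox9, from about 10 to about 1406 kb away, and their values describe the desert, not the promoter or body of the gene. Kcnj2, the gene at the far end, encodes an inwardly rectifying potassium channel. In the RefSeq annotation of another build (GRCm38.p6), used for names and order only, 7 annotated genes lie between Kcnj2 and Sox9: 5 long noncoding RNAs, among them BC006965, listed next to Sox9, 1 pseudogene and 1 protein-coding model, Gm11677. The sources used here give no mm9 position for these genes or for any Sox9 enhancer, so no region was assigned to one.

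Values are RPM, reads in a region per 1000000 reads as scaled by the authors; all values are whole multiples of 0.0317 RPM in K36M and of 0.0335 RPM in WT, and 1 such step is taken as 1 read. No source used here states this, and few WT values are low enough to show single steps. Read numbers and counting intervals rest on it, whereas RPM values and ratios do not. They are not divided by width, so densities are given as RPM per kb where regions of different width are compared. All intervals are exact 95% intervals of the ratio for counting error only. With 1 library of each kind, K36M could not be tested against WT, and no value has a replicate check. Changes are described as log2((K36M + 0.1)/(WT + 0.1)), which understates the change of low regions.

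All 31 regions of the interval held less Ring1b signal in K36M cells than in WT cells. Summed over the 31 regions, which cover 139.6 kb, the level was 86.2 RPM in K36M and 246 RPM in WT, from 2720 and 7358 reads. That is 2.86-fold lower in K36M (interval 2.74 to 2.99). The other 6340 regions of the table together stood 1.57-fold lower. The interval thus held 0.378% of the listed Ring1b signal in K36M and 0.684% in WT. In the table as a whole, 85.1% of regions were lower in K36M, so that direction alone is common.

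The size of the difference is set here beside that of all regions. All 31 regions were at least 1.5-fold lower in K36M, against 53.4% of all regions. Levels were at least 2-fold lower at 24 of the 31, against 33.5% of all regions, and at least 4-fold lower at 10, against 8.26%. Counts by fold use the ratio with 0.1 RPM added to both values, whereas folds of single regions and sums are given without it. Thus chr11:111624001-111624400, 4.14-fold lower without the addition, has a log2 ratio of -1.92 with it and is not among the 10. No region was at least 1.5-fold higher, against 1.22% of all regions. The counting interval lay below 1 at all 31, against 65.1% of all regions. The median log2 ratio was -1.44 over the 31 regions (quartiles -2.22 and -1.06) and -0.65 over the other regions. Relative to the median of the whole table, also -0.65, 13 of the 31 were at least 2-fold lower in K36M and the summed ratio was 0.550. Dense runs are runs of at least 10 regions with gaps of at most 2000 bp. Outside them, the other regions had a median log2 ratio of -0.73, and 36.3% were at least 2-fold lower. The 31 regions share 2 libraries and several touch each other, so these counts are not independent observations, and no test sets the interval apart.

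**Figure D1:**
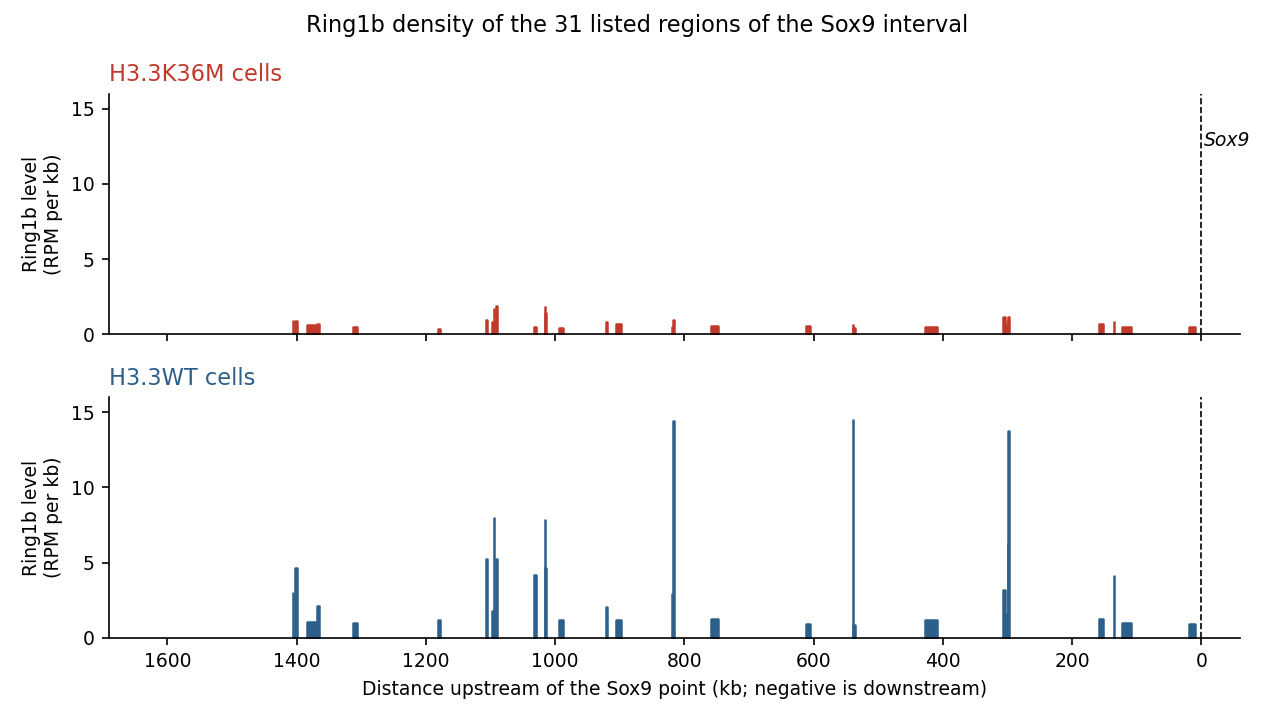
Ring1b density (RPM per kb) of the 31 regions in K36M cells (top) and WT cells (bottom), plotted by distance upstream of the Sox9 point (kb, dashed line at 0). Each block spans 1 region, with an outline that widens the narrowest ones, and the axes are shared; densities reach 1.90 in K36M and 14.6 in WT.

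The regions formed 15 groups when neighbours up to 20 kb apart were joined, of which 7 held a single region. They are described from the Kcnj2 side towards Sox9. The spacing was chosen after the data were seen.

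The far end of the desert, about 1365 to 1406 kb upstream, held 4 regions whose changes differed widely over 41200 bp. The outermost, chr11:111234201-111235200, had 0.919 RPM in K36M and 3.02 RPM in WT, 3.28-fold lower. Next to it, chr11:111237801-111240000 had 1.87 RPM in K36M and 10.2 RPM in WT, 5.46-fold lower (interval 4.12 to 7.35). The broad region chr11:111256801-111271600, 14800 bp wide, had 8.72 RPM in K36M and 15.1 RPM in WT, 1.73-fold lower (interval 1.49 to 2.02). This region had the highest K36M value of the interval, and its counting interval did not overlap that of the 2200-bp region beside it. Beyond a gap of 400 bp, chr11:111272001-111275400 had 2.35 RPM in K36M and 7.17 RPM in WT, 3.06-fold lower. Summed, the group stood 2.56-fold lower.

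Single regions followed on the Sox9 side. At about 1309 kb, chr11:111327401-111334000 had 3.33 RPM in K36M and 6.53 RPM in WT, 1.96-fold lower. At about 1179 kb, chr11:111458601-111462600 had 1.39 RPM in K36M and 4.62 RPM in WT, 3.31-fold lower. Its K36M density, 0.349 RPM per kb, was the lowest of the 31.

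The part of the desert about 1014 to 1108 kb upstream held 7 regions in 2 groups, and every one of them was at least 2-fold lower. The region chr11:111532401-111535000 had 2.41 RPM in K36M and 13.6 RPM in WT, 5.63-fold lower (interval 4.40 to 7.29). The adjoining pair chr11:111542201-111545400 and chr11:111545401-111545800 differed in width and in change. The wider had 2.57 RPM in K36M and 5.63 RPM in WT, 2.19-fold lower, and the 400-bp one had 0.697 RPM in K36M and 3.22 RPM in WT, 4.61-fold lower. At chr11:111548401-111550400 the level was 3.80 RPM in K36M and 10.5 RPM in WT, 2.76-fold lower. In the second group, chr11:111607201-111610200 had 1.39 RPM in K36M and 12.6 RPM in WT, a 9.03-fold lower level (interval 6.60 to 12.6). No other member wider than 600 bp reached this fold. The 2 touching regions beside it, chr11:111624001-111624400 and chr11:111624401-111626400, were 4.14-fold and 3.31-fold lower, with 0.761 RPM in K36M against 3.15 RPM in WT and 2.82 RPM in K36M against 9.35 RPM in WT. Summed, the first group was 3.47-fold lower (interval from 3.05-fold) and the second 5.04-fold lower (interval from 4.24-fold).

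Between about 898 and 993 kb the differences were smaller. The region chr11:111646801-111651600 had 2.09 RPM in K36M and 5.63 RPM in WT, 2.69-fold lower. At chr11:111718401-111720400 the level was 1.59 RPM in K36M and 4.05 RPM in WT, 2.56-fold lower. The 8000-bp region chr11:111733801-111741800 had 5.23 RPM in K36M and 9.35 RPM in WT, 1.79-fold lower (interval 1.47 to 2.18).

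A pair of touching regions about 816 to 820 kb upstream formed the group with the largest difference, 8.30-fold lower in sum, with a lower bound of 6.26-fold. The 3000-bp region chr11:111820201-111823200 had 1.36 RPM in K36M and 8.71 RPM in WT, 6.39-fold lower (interval 4.61 to 9.04). The 400-bp region chr11:111823201-111823600 had 0.380 RPM in K36M and 5.76 RPM in WT, from 12 and 172 reads. This was 15.1-fold lower, and the few K36M reads left a wide interval of 8.45 to 29.9.

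Further in, 2 broad regions with modest differences were followed by a touching pair whose members differed widely. The 10800-bp region chr11:111880601-111891400, about 754 kb upstream, had 5.67 RPM in K36M and 13.8 RPM in WT, 2.43-fold lower (interval 2.04 to 2.92). The 6800-bp region chr11:112028401-112035200, about 608 kb upstream, had 3.87 RPM in K36M and 6.13 RPM in WT. At 1.59-fold lower (interval 1.25 to 2.01) it changed least of the 31. About 539 kb upstream lay the largest fold of the interval: the 400-bp region chr11:112100601-112101000 had 0.285 RPM in K36M and 5.83 RPM in WT, from 9 and 174 reads, 20.4-fold lower (interval 10.5 to 45.4). The region touching it, chr11:112101001-112103600, had 1.08 RPM in K36M and 2.28 RPM in WT, 2.11-fold lower (interval 1.38 to 3.29). These 2 counting intervals did not overlap, although the regions share a border.

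The region with the highest WT value, chr11:112213001-112230600, lay about 418 kb upstream and spanned 17600 bp. It had 8.24 RPM in K36M and 21.4 RPM in WT, from 260 and 639 reads, 2.60-fold lower (interval 2.25 to 3.01). Its density, 0.468 RPM per kb in K36M and 1.22 RPM per kb in WT, lay below the medians of the 31, 0.690 and 2.11. Against the medians of other regions over 4000 bp, 0.598 in K36M and 0.936 in WT, it was lower in K36M and higher in WT.

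About 298 to 307 kb upstream, 4 regions within 8800 bp stood 3.84-fold lower in sum. The outer region chr11:112333401-112336600 had 3.71 RPM in K36M and 10.3 RPM in WT, 2.76-fold lower. The 3 inner regions touched each other, and the difference was larger in each successive one towards Sox9. The first, chr11:112338201-112341200, had 1.93 RPM in K36M and 4.82 RPM in WT, 2.49-fold lower. The middle one, chr11:112341201-112341600, had 0.380 RPM in K36M and 2.51 RPM in WT, 6.60-fold lower, from 12 and 75 reads. The last, chr11:112341601-112342200, had 0.697 RPM in K36M and 8.24 RPM in WT, 11.8-fold lower (interval 7.63 to 19.2).

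The 4 regions nearest to Sox9 included 3 broad ones with differences close to 2-fold. The region chr11:112482401-112488200 had 3.96 RPM in K36M and 7.30 RPM in WT, 1.84-fold lower. The 800-bp region chr11:112504601-112505400 had 0.729 RPM in K36M and 3.35 RPM in WT, 4.59-fold lower (interval 2.90 to 7.58). The 14400-bp region chr11:112517601-112532000 had 7.29 RPM in K36M and 14.0 RPM in WT, 1.92-fold lower (interval 1.63 to 2.26). The last region before the gene, chr11:112620401-112629800, spans from about 20 to about 10 kb upstream of the Sox9 point. It had 4.69 RPM in K36M and 8.44 RPM in WT, from 148 and 252 reads, 1.80-fold lower (interval 1.46 to 2.22). Its log2 ratio of -0.83 lay 0.18 below the median of the whole table. Against its 1.80-fold, the 30 regions farther away stood 2.92-fold lower in sum (interval 2.79 to 3.06). Width differs in this comparison: the nearest region spans 9400 bp, and the 10 members over 4000 bp, itself included, were 2.03-fold lower in sum.

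**Figure D2:**
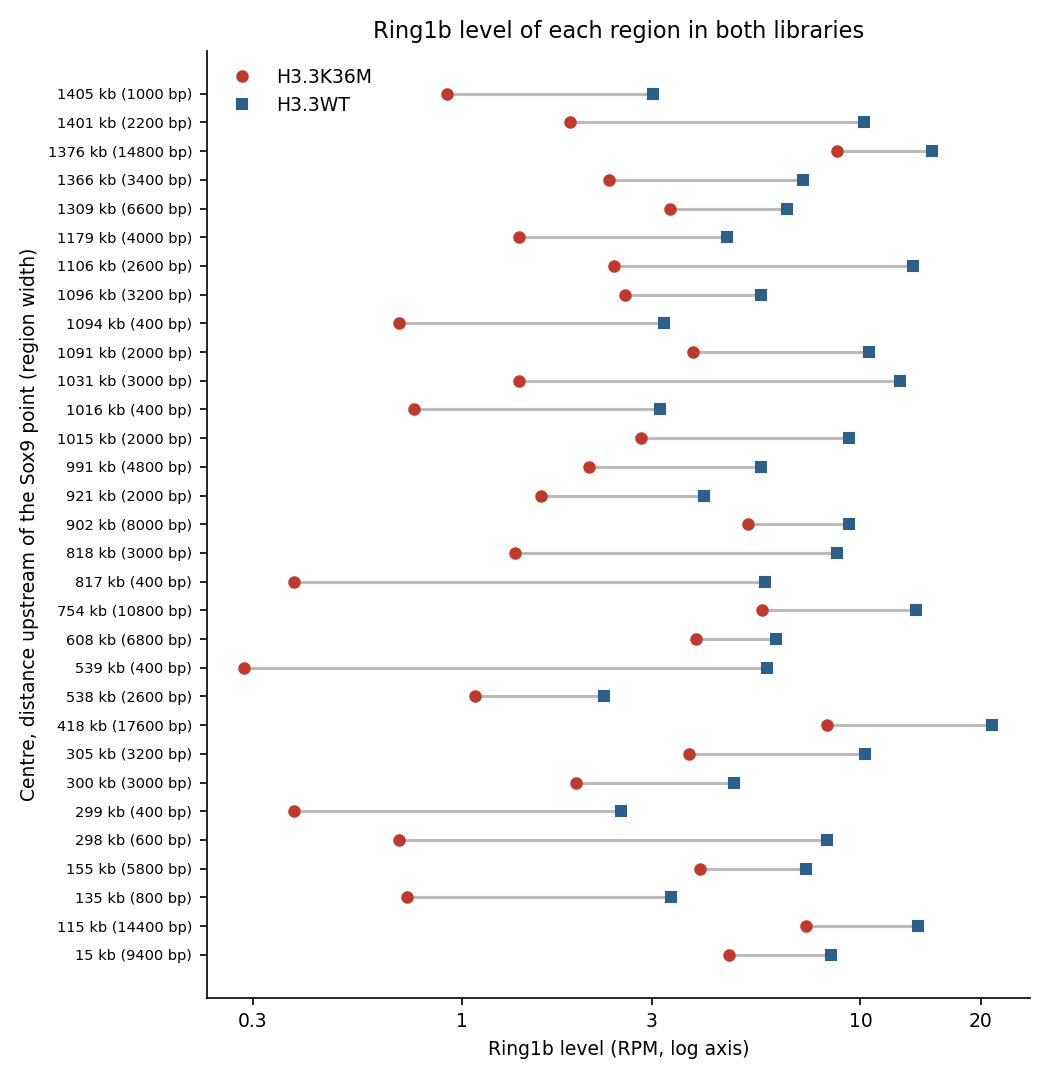
Ring1b level (RPM, log axis, not divided by width) of each of the 31 regions in K36M cells (circles) and WT cells (squares), ordered from the Kcnj2 side at the top to Sox9 at the bottom. The K36M value lies left of the WT value at every region, and the 3 longest lines belong to 2 regions of 400 bp and 1 of 600 bp, followed by the 3000-bp region at 1031 kb.

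The ratio did not fall or rise evenly with distance from Sox9. In steps of 250 kb outward from the gene, the summed level was 1.98-fold lower for the first 4 regions (interval 1.78 to 2.21), 3.16-fold for the next 5, 2.72-fold for the next 3 and 2.90-fold for the next 6. It was 3.95-fold lower for the 8 regions between 1000 and 1250 kb (interval 3.58 to 4.37) and 2.45-fold lower for the outermost 5. The smallest and the largest fold thus stood in the nearest step and in the last but one. Spearman's rho between the log2 ratio and the distance was -0.11 over the 31 regions, and -0.32 when the 6 regions of 400 to 600 bp were left out. These are descriptions across regions of the same 2 libraries. The steps differ in the width of their regions: the median width was 7600 bp in the nearest step and 2300 bp between 1000 and 1250 kb.

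**Figure D3:**
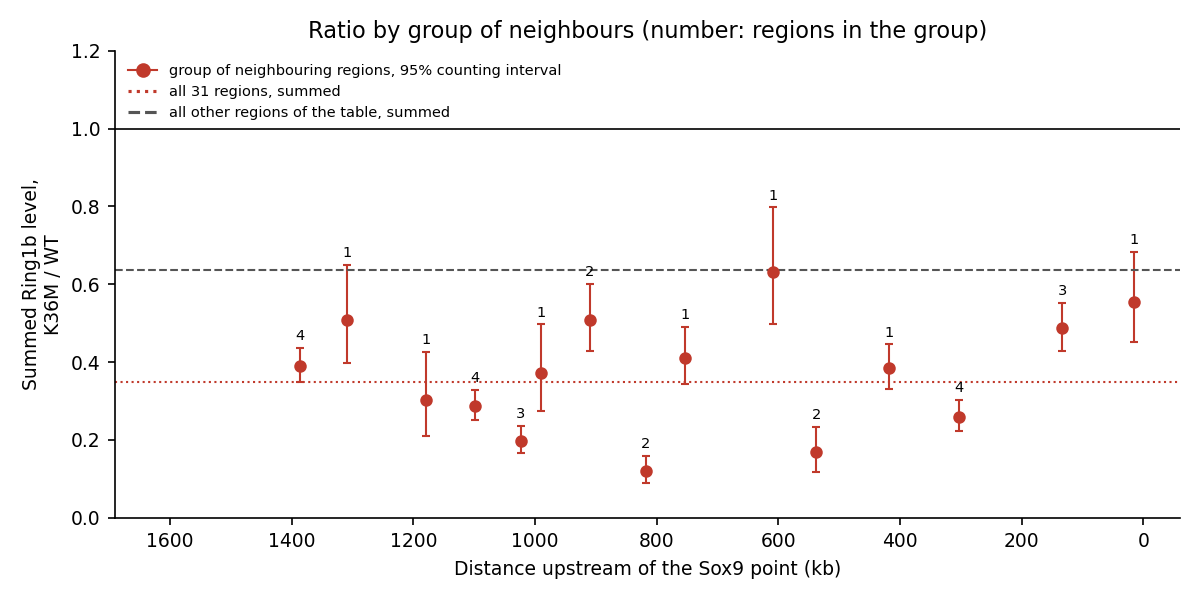
Summed Ring1b level in K36M over that in WT for the 15 groups of neighbouring regions, by distance upstream of the Sox9 point (kb). Bars are 95% counting intervals and numbers give the regions in a group; every interval lies below 1 (solid line), the group at 608 kb (0.631) sits at the value of all other regions (0.636, dashed) and the dotted line marks all 31 regions (0.350).

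Folds were larger at regions that were dense in WT cells and narrow. The 6 densest regions in WT were the 6 narrowest, 400 to 600 bp wide, with 0.713 to 1.90 RPM per kb in K36M against 6.28 to 14.6 RPM per kb in WT, and they were 4.14-fold to 20.4-fold lower. The 6 least dense regions, 2600 to 14800 bp wide, had 0.415 to 0.589 RPM per kb in K36M against 0.876 to 1.02 RPM per kb in WT, and they were 1.59-fold to 2.11-fold lower. Across the 31 regions, density spanned 5.45-fold from the lowest to the highest in K36M and 16.6-fold in WT. The order of densities was partly shared between the libraries, with a rho of 0.77. Spearman's rho of the log2 ratio was -0.85 with WT density and 0.76 with width. The first of these shares the WT value between both measures, and density and width are themselves tied (rho -0.84). Outside the interval and outside dense runs, that is runs of at least 10 regions with gaps of at most 2000 bp, the same correlations over 5782 regions were weaker, at -0.36 with WT density and 0.24 with width. Values include background reads, whose share was not measured here. How much of the small fold at low densities comes from them was not tested.

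**Figure D4:**
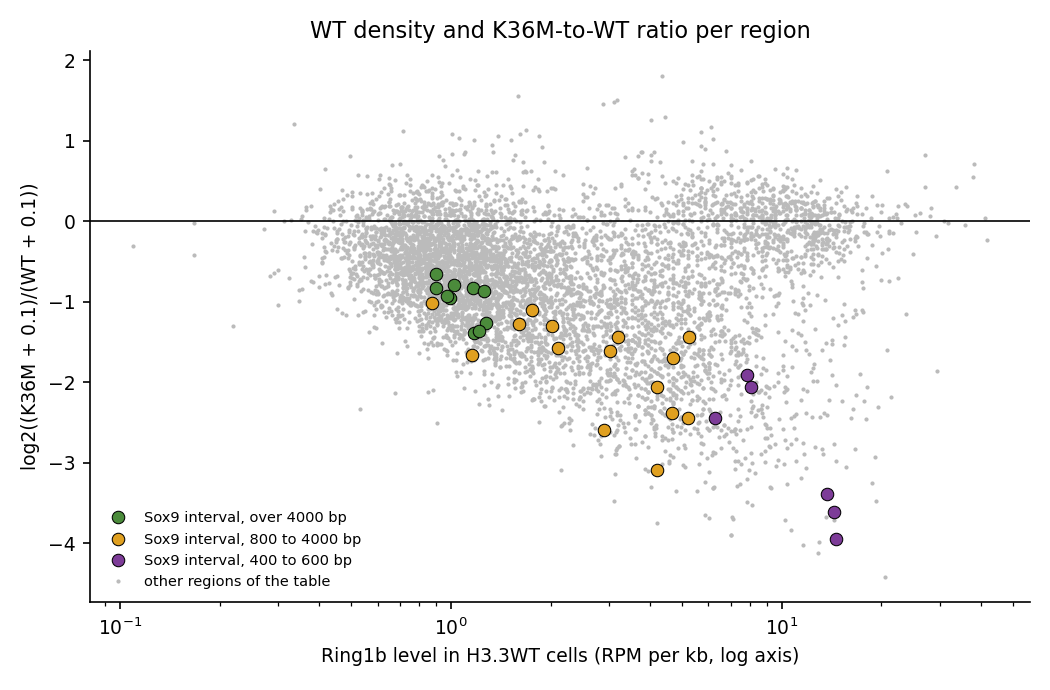
WT density of each region (RPM per kb, log axis) against log2((K36M + 0.1)/(WT + 0.1)), with the 31 regions of the Sox9 interval coloured by width and 6336 other regions in grey; 4 others at or below 0.1 RPM per kb in WT are not drawn. The 6 narrow regions lie at 6.28 RPM per kb or more with log2 ratios from -3.94 to -1.92, where many other regions lie near 0. The grey points include the dense runs: the median log2 ratio of other regions of at most 600 bp is -0.58 with these runs and -1.04 without them.

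Each width class of the interval stood lower than the regions of that class elsewhere. The 6 regions of at most 600 bp had 3.20 RPM in K36M and 28.7 RPM in WT in sum, 8.97-fold lower (interval 7.29 to 11.1), and the 1488 other regions of at most 600 bp outside dense runs were 1.81-fold lower. Their median log2 ratios were -2.91 and -1.04. The 15 regions over 600 and up to 4000 bp were 3.68-fold lower in sum, with a median log2 ratio of -1.61, against -0.84 for 1664 others outside dense runs. The 10 regions over 4000 bp were 2.03-fold lower (interval 1.91 to 2.15), with a median of -0.90 against -0.58 for 2630 others outside dense runs. Of the 10, 3 were at least 2-fold lower and none was at least 4-fold lower. The 5 regions wider than 8 kb held 34.6 RPM in K36M and 72.7 RPM in WT, 2.10-fold lower, at 0.517 RPM per kb in K36M and 1.09 RPM per kb in WT. None of the 31 lay in a dense run.

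Touching regions showed the difference between narrow and wide stretches side by side. In 5 chains, 11 regions each shared a border with another, and each chain held at least 1 region of 400 or 600 bp. Each of these 6 narrow regions was set against the widest region of its chain, which it touched in every case but that at 112341601. In all 6 comparisons the narrow region was denser than the widest one in both libraries and had the lower log2 ratio. In WT the narrow region was 1.68 to 16.6 times as dense as the widest one, and in K36M 1.35 to 2.17 times. Between the 2 narrow regions that touched each other the order was the other way: the 400-bp one at 112341201 was less dense than the 600-bp one at 112341601, with 0.951 and 1.16 RPM per kb in K36M and 6.28 and 13.7 RPM per kb in WT, and its log2 ratio was higher, at -2.44 against -3.39. The largest contrast was at 112100601, where 0.713 RPM per kb in K36M and 14.6 RPM per kb in WT lay against 0.415 and 0.876 RPM per kb, in the same order, in the region beside it. The smallest was at 111624001, where the log2 ratios of the narrow and the wider region were -1.92 and -1.69. How adjoining regions were split by the authors is not given in the sources used here. Members are taken as chosen in WT, and the part of that choice in the contrast was not tested.

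The nearest listed region on each side of the interval had a higher value in K36M. The last region before it, chr11:110742601-110743000, had 5.07 RPM in K36M and 2.71 RPM in WT (ratio 1.87). The first region after it, chr11:112710001-112712000, had 2.98 RPM in K36M and 2.18 RPM in WT (ratio 1.37). No counting interval is given for either ratio, so a difference from 1 beyond counting error is not shown. In the 1.75 Mb before the interval, 5 of 7 regions were higher in K36M, and their sum was 30.7 RPM in K36M and 25.4 RPM in WT (ratio 1.21, interval 1.10 to 1.33). In the 1.75 Mb after it, 2 of 6 regions were higher in K36M, and the sum was 29.8 RPM in K36M and 44.1 RPM in WT (ratio 0.676, interval 0.621 to 0.736). The counting interval of the Sox9 interval's own ratio of 0.350, from 0.335 to 0.366, overlapped neither. The other 287 regions of chromosome 11 outside dense runs stood at 0.689.

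Among stretches of equal length that held at least 16 listed regions, few stood lower. The genome was tiled into windows of 1.75 Mb, and 53 windows outside the interval held at least 16 regions. Windows with fewer regions were not ranked, so lower ratios among them would not show here. Their summed ratios ran from 0.316 to 1.17 with a median of 0.602. A ratio below that of the Sox9 interval was found in 3, and a lower median log2 ratio in 4. Every region was lower in K36M in 10 of the 53. The closest in ratio were chr11:94500001-96250000 with 31 regions (0.350), chr16:24500001-26250000 with 26 regions (0.364) and chr3:94500001-96250000 with 26 regions (0.323). The position of the Sox9 interval in this order is a description; its borders follow the desert, whereas the windows start at fixed steps.

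**Figure D5:**
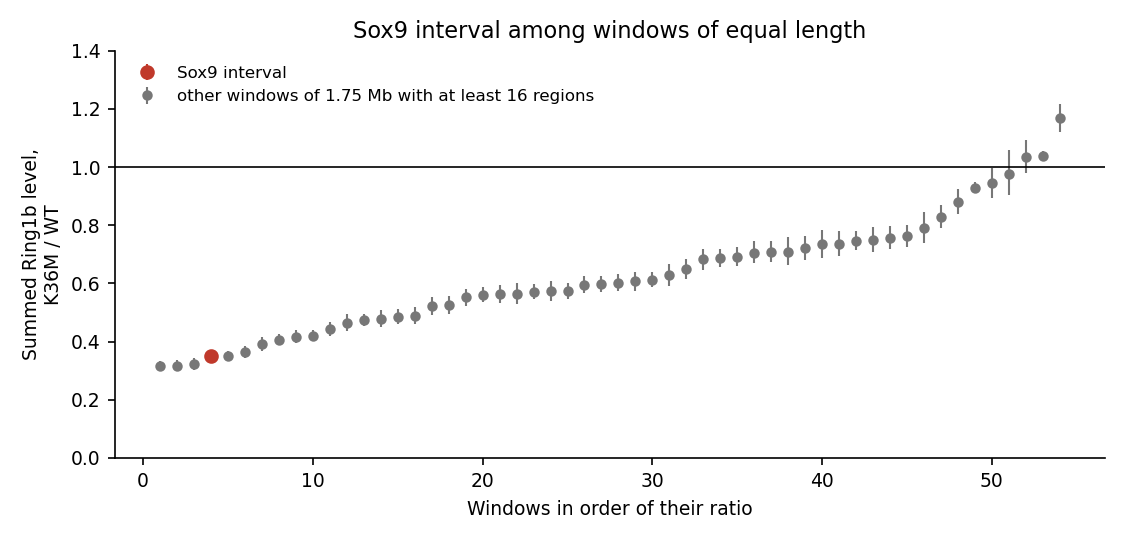
Summed Ring1b level in K36M over that in WT for the Sox9 interval (red) and 53 other windows of 1.75 Mb with at least 16 regions (grey), in order of the ratio; bars are 95% counting intervals, some shorter than the symbols. The Sox9 interval (0.350) has 3 windows below it.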

How the data were processed

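For the Ring1b ChIP-seq the authors deposited 1 table of 6371 regions with a column per library. Bowtie 1.0.0 and build mm9 are named in the submitters' processing notes. Not given in the sources used here are the peak caller, the handling of duplicates and how reads were counted. The deposited columns are headed RPKM, but all values are whole multiples of 1 step per library whatever the width (100% within 0.01 reads), so they are taken as RPM scaled by the authors and not divided by width. Taking 1 step as 1 read, which no source used here states and which the few low WT values leave less certain for WT, gave 720528 in K36M and 1075510 in WT as reads over the table, with 9 to 275 and 68 to 639 per member. Starts are printed counted from 1.

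Regions overlapping the interval were taken as members. Ratios carry exact (Clopper-Pearson) 95% intervals given the reads of both libraries. They were run on simulated independent counts, for which such intervals hold by design. That run checks the calculation only, as it had no copied reads and no differences between libraries. Without molecular identifiers, reads can be copies of 1 molecule. The members, the groups and the descriptions were chosen with earlier results of these data known. The naming rule covered all members within 20 kb of Sox9, the 6 highest in WT, the 6 lowest and 6 highest log2 ratios among those with at least 20 reads, and the farthest member, 15 in all; the other 16 members are given too. Python 3.11.15, scipy 1.17.1, pandas 2.3.3 and matplotlib 3.10.9 were used. The promoter table used here holds no entry for Sox9.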

Additional observations from a re-analysis of the deposited data

How the results depend on the processing

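Over 38 alternative values, 28 stayed close to those reported, and no summed or median ratio changed direction. Direction was not scored for the counts or for the correlation. Some values were bound to stay: a limit of 50 kb added no region to that within 20 kb. The tally is thus no measure of how robust the results are. Pseudocounts of 1 gave a median log2 ratio of -1.24. Centring on the median of all regions, a shift of -0.65, gave a summed ratio of 0.550, a median of -0.79 and 13 regions at least 2-fold lower; centring on the median outside dense runs, chosen after the data were seen, gave -0.70 and 11 regions. Without regions of 400 bp or less the summed ratio was 0.370. The correlation with distance was -0.27 with regions within 2000 bp merged and -0.32 without regions of at most 600 bp, the second chosen after the data were seen. Summing groups of neighbours, also chosen then, left 11 of 15 groups at least 2-fold lower. No region lay within 10 kb of Sox9, so that setting gave no value for the nearest regions. No paired analysis was possible because each form of H3.3 has 1 library. With as few as 9 K36M reads, the narrowest regions have the widest intervals.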
